A study of Homo sapiens with 5 samples.

Results

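The NF-kB subunits and feedback inhibitors were followed in NCI-H209, an established cell line from a human small cell lung cancer, after co-culture with human brain microvascular endothelial cells (HBMECs). The group holds 10 genes chosen by name out of the 64837 entries counted, namely the subunits NFKB1, NFKB2, REL, RELA and RELB, the inhibitors NFKBIA and NFKBIE, the nuclear IkB proteins NFKBIZ and BCL3, and the ubiquitin-editing enzyme TNFAIP3. RNA-Seq was done on 3 control libraries of untreated NCI-H209 cells and on 2 libraries of NCI-H209 cells conditioned by HBMECs for 24 h across the porous membrane of a Transwell insert. Both groups are this 1 line, with no genetic change named, and the labels do not say whether the libraries of a group came from separate cultures, so the p-values measure the spread between these libraries, which may be technical. The comparison asks which transcripts of the tumor cells differ after contact, through shared medium, with the vascular cells of the metastatic niche. The paper lists Nu-serum for the HBMEC medium but not for that of NCI-H209. It names neither the medium of the co-culture nor an insert for the control cells. Medium, insert and HBMECs thus cannot be told apart.

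NF-kB is a family of transcription factors that act as pairs. In resting cells most pairs are held in the cytoplasm by IkB proteins, and signals from cytokine receptors activate the IKK kinases, which mark the IkB proteins for destruction and free the pairs to enter the nucleus. Many inhibitors of the pathway are themselves transcribed by NF-kB, which makes their transcripts a commonly read output of the pathway as well as a brake on it.

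The libraries held 15457071 to 19157348 counts on genes. Unmapped reads made up 8.13% to 8.48% of the reads in control, against 15.9% and 16.8% after co-culture, and the part of this difference in the results was not tested. Of the genes of neuroendocrine tumor cells, INSM1 stood at 498 to 636 CPM (counts scaled by TMM-adjusted library size) in control and at 562 and 568 CPM in co-cultured cells. SYP stood at 56.3 to 65.3 CPM against 90.2 and 86.2 CPM, while CHGA had at most 1 count in any library. Of 13 such genes 12 were tested. At an adjusted p under 0.05 (edgeR), 5 were higher and 2 lower, beside 18.4% and 15.0% of all genes tested. Those lower were DDC and STMN2, with log2 fold changes of -0.58 and -1.12. Of 13 endothelial markers, PLVAP had 0 counts in every library, and EMCN, ROBO4 and TIE1 had at most 1. VWF and ERG had the highest mean levels in both groups. VWF was counted 159, 75 and 87 times in control against 87 and 90 times after co-culture. ERG was counted 70, 64 and 55 times against 52 and 41 times. Of the 8 that could be tested 1 was called, ESAM, beside 33.4% of all genes tested. For ESAM 3, 4 and 6 reads were counted in control against 21 and 14 after co-culture. ESAM passed the filter on low counts through the co-cultured libraries where it is high, so its call is a description only. The summed level of the endothelial markers was 9.57 to 19.3 CPM in control and 12.9 to 13.1 CPM in co-cultured cells. The leukocyte markers summed to 1.66 to 2.61 CPM in control and 1.98 to 2.02 CPM in co-cultured cells, most of it from CD14, with 22, 17 and 26 counts against 34 and 22, while PTPRC, CD3E, MS4A1 and CD68 had 0 counts in both co-cultured libraries. Reads that match several entries are counted on none. Counts at or near 0, such as those of CHGA and CD68, thus do not show that a transcript was absent. In such bulk samples, a change in the make-up of the culture and a change of RNA per cell cannot be told apart.

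Transcripts of 9 of the 10 genes were higher in the co-cultured cells at an adjusted p under 0.05 (edgeR, quasi-likelihood test, adjusted by Benjamini-Hochberg over every gene tested), and 0 were lower, also at an unadjusted p under 0.05. Over the 20360 genes tested, 33.4% passed that threshold, 18.4% as higher and 15.0% as lower. The 10 genes and the pathway lists below were chosen with earlier results of these data known, so their shares are a description only. The estimates of all 10 genes were above 0, from 0.06 for REL to 1.93 for BCL3 on the log2 scale, and their median log2 fold change was 0.77, where that of all genes tested was -0.03. By DESeq2 8 were higher and 0 lower. Both co-cultured libraries lay above all 3 control libraries for 9 genes, a separation without overlap that 59.4% of all genes tested showed in either direction. BCL3, TNFAIP3 and RELB had a log2 fold change above 1 at an unadjusted p under 0.05, which 5.44% of all genes met as higher. All 10 genes passed the filter on low counts, with at least 76 counts in every library.

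**Figure D1:**
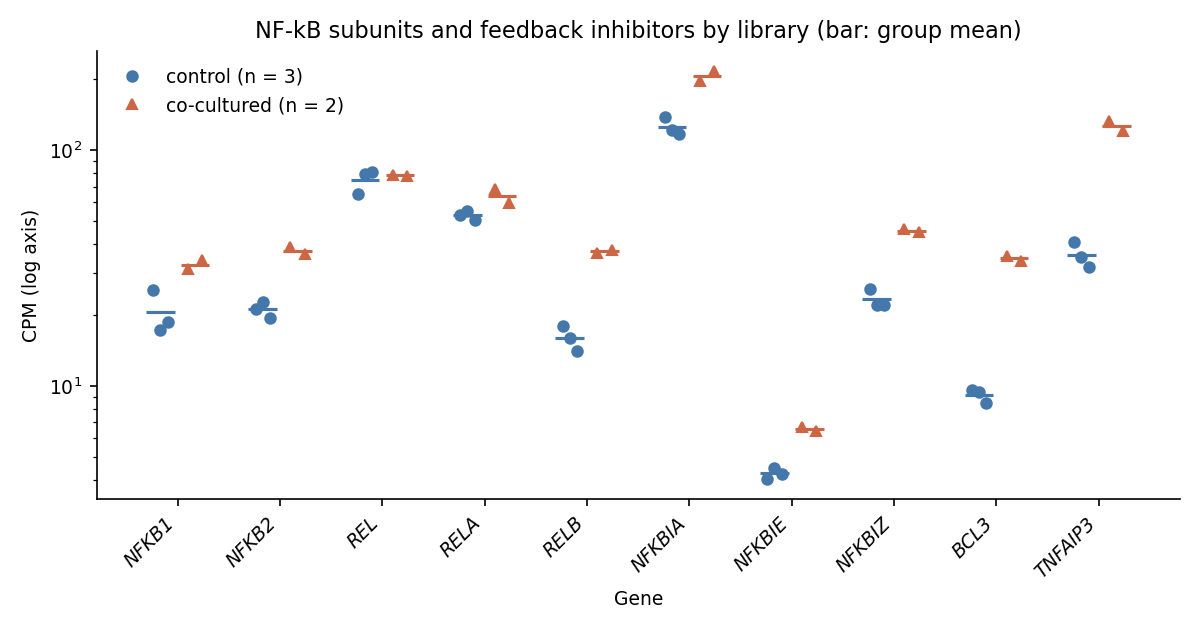
Level of each gene in every library, in CPM on a log axis, with circles for the 3 control and triangles for the 2 co-cultured libraries and a bar at each group mean. The triangles lie above all circles for each gene except REL, and the gap is widest for BCL3 (9.16 to 34.8 CPM) and TNFAIP3 (36.0 to 127 CPM).

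The starts of these genes are shown because NF-kB feedback runs through binding sites near the start of the gene, and because they let genes that rose be set beside one that gave no call. Promoters of RefSeq on GRCh38.p14, from 250 bases before to 50 bases after the start, were matched by symbol for 8 of the 10 genes, with 13 annotated starts in all. They were searched on both strands for the kB consensus motif, which is GGG, a purine, any 2 bases, 2 pyrimidines and CC. Capitals mark every match, and overlapping matches run together.
TNFAIP3, chr6:137867009-137867308, plus strand: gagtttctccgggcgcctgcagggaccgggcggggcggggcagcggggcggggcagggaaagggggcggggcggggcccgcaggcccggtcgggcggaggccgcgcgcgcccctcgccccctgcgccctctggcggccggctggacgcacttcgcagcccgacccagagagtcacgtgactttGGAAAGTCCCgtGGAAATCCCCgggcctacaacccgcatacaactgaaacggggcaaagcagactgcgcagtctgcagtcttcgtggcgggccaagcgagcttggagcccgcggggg
BCL3, chr19:44748458-44748757, plus strand: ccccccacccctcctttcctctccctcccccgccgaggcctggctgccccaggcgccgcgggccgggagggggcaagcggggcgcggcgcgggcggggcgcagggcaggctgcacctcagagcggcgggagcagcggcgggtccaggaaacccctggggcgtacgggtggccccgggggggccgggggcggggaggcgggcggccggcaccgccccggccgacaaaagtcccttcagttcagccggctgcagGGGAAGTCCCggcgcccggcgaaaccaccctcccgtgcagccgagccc
NFKBIA, chr14:35404700-35404999, minus strand: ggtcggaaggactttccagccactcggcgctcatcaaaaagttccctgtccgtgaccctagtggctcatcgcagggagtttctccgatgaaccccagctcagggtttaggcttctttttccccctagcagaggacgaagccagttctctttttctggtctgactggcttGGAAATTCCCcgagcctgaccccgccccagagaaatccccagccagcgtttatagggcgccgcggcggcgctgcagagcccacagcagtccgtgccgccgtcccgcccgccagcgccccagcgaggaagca
NFKB2, second of 3 starts, chr10:102394328-102394627, plus strand: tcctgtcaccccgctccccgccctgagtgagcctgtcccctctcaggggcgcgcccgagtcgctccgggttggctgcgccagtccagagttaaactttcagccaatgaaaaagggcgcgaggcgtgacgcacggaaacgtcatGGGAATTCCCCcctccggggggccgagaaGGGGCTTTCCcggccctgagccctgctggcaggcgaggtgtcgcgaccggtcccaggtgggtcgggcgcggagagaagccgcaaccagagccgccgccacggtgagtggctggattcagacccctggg
REL, chr2:60881324-60881623, plus strand: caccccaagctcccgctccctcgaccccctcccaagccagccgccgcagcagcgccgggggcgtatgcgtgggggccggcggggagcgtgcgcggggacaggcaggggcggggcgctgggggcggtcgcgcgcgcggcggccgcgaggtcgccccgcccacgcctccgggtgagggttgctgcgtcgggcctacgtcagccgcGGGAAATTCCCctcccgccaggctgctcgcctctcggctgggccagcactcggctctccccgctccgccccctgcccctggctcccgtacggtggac

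The motif was found at 9 of the 13 starts (69.2%), and at 11.3% of all 35116 RefSeq promoters of this length. The 13 starts belong to 8 genes, of which 7 held the motif. The genes were chosen as members of a pathway whose feedback runs through such sites, so these shares are a description only. TNFAIP3 held the motif at 67 and 55 bases before the start, NFKBIA at 81 bases before it, and BCL3 at 2 bases after it. The printed start of NFKB2 held separate stretches 107 and 78 bases before the start. Of its other annotated starts, the first held no match and the third held matches 176 and 21 bases before it. NFKB1 held a match 49 bases before 1 of its annotated starts, and NFKBIZ 1 match at each of its annotated starts. REL held a pair of overlapping matches 47 and 46 bases before its start although its transcript was not called, and neither annotated start of RELA held one. A match is a run of letters and not a measured binding site.

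Among the subunits, the genes of the RELB and NFKB2 products, which pair with each other in the non-canonical branch of the pathway, rose together with NFKB1. RELB (ENSG00000104856.13, chromosome 19, 45001430 to 45038198 on GRCh38) was counted 337, 290 and 274 times in control and 670 and 571 times after co-culture. This corresponds to 17.9, 16.0 and 14.0 CPM against 36.6 and 37.7 CPM, and both co-cultured libraries lay well above the highest control library. The log2 fold change of RELB was 1.22 (standard error 0.12, adjusted p = 0.000153). NFKB2 (ENSG00000077150.18, chromosome 10, 102394110 to 102402529), whose product is a precursor that is trimmed into a DNA-binding subunit, went from 21.1, 22.7 and 19.5 CPM to 38.8 and 36.2 CPM. The ranges were separate, and its log2 fold change was 0.83 (standard error 0.10, adjusted p = 0.00047). In NFKB2 the share of reads on the opposite strand was 5.71% to 10.5% in control and 1.79% to 2.20% in co-cultured cells. With these reads subtracted its log2 fold change was 0.93 (adjusted p = 0.000804).

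NFKB1 (ENSG00000109320.11, chromosome 4, 102501329 to 102617302) encodes the precursor of the usual partner of RELA. It had 25.5, 17.3 and 18.7 CPM in control and 31.3 and 34.1 CPM in co-cultured cells. Control replicate 1 lay nearest to the co-cultured libraries but still below them. The log2 fold change was 0.67 (standard error 0.16, adjusted p = 0.0102). NFKB1 lost its call without co-cultured replicate 1 (0.74) and without co-cultured replicate 2 (0.62), fits with a lone co-cultured library. Over 15 alternatives its log2 fold change ran from 0.57 to 0.86.

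RELA and REL, which carry the activation domains of the classical pairs, had the smallest estimates of the 10 genes. RELA (ENSG00000173039.18, chromosome 11, 65653596 to 65663094) had 53.2, 55.1 and 50.4 CPM in control and 68.2 and 59.6 CPM in co-cultured cells. A lincRNA on the opposite strand, AP001362.2, overlaps its exons. The groups did not overlap, yet the co-cultured libraries differed from each other by more than the control libraries did. The log2 fold change was 0.28 (standard error 0.0889, adjusted p = 0.0403). The call held under 6 of 15 alternatives, over which the log2 fold change ran from 0.18 to 0.37. The call was lost without control replicate 2 (0.31, adjusted p = 0.0567), control replicate 3 (0.24, adjusted p = 0.122), co-cultured replicate 1 (0.18) or co-cultured replicate 2 (0.37). REL (ENSG00000162924.14, chromosome 2, 60881521 to 60931610) had 65.2, 79.0 and 80.8 CPM in control and 78.5 and 77.7 CPM in co-cultured cells. The co-cultured libraries fell within the range of the control libraries, and the log2 fold change was 0.06 with a 95% interval from -0.17 to 0.29 (adjusted p = 0.691). A difference of REL within its interval was not detectable here. The estimate of REL was slightly below 0 without control replicate 1 (-0.03), which held the lowest level of this gene.

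**Figure D2:**
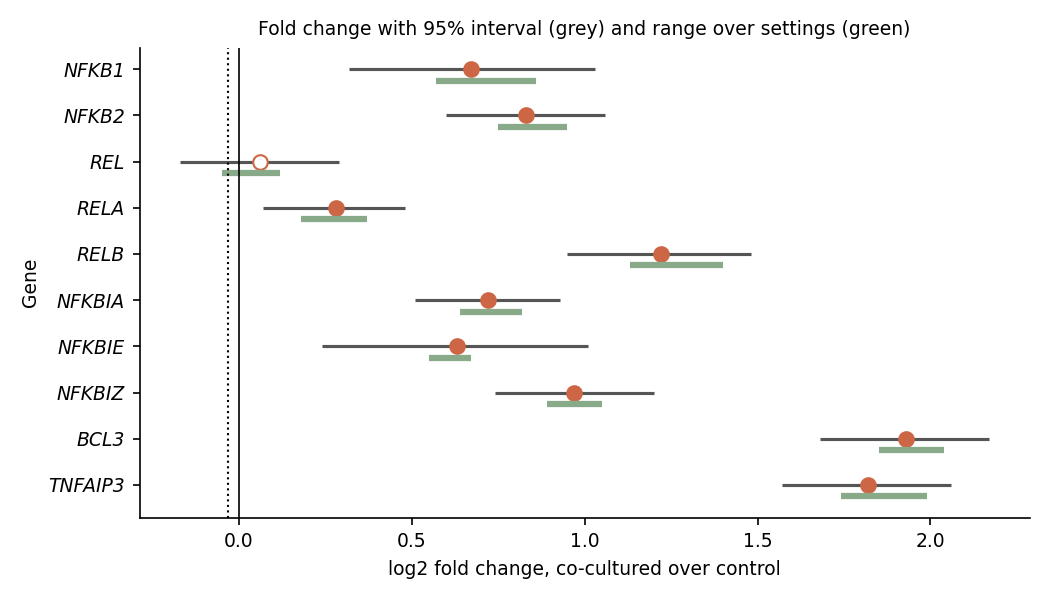
Change of each gene with co-culture (log2, relative to control), with filled circles for genes at an adjusted p under 0.05 and an open circle for REL. Grey lines are 95% intervals of the edgeR fit, green bars the range over 15 other settings and the main one, and the dotted line is the median of all genes tested (-0.03). BCL3 and TNFAIP3 lie farthest to the right, with intervals from 1.68 to 2.17 and from 1.57 to 2.06.

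Since subunits rose to different extents, the make-up of the subunit transcripts was compared per kb of exon length, as shares of the 5 subunits in each library. RELA was the main subunit in control, with 33.1%, 34.5% and 33.8%, and held 28.3% and 25.5% in co-cultured cells. RELB made up 20.1%, 18.1% and 16.9% in control and 27.3% and 29.1% in co-cultured cells. The ratio of RELB to RELA per kb was 0.607, 0.524 and 0.501 in control and 0.967 and 1.14 in co-cultured cells, so that RELB stood near RELA on this scale, while per kb of coding length RELB stayed below RELA in every library. The share of NFKB2 was 16.4% ± 0.812 without and 19.2% ± 0.505 with co-culture (SD, n = 3 and n = 2), that of REL was 20.0% ± 2.85 against 13.6% ± 0.207, and that of NFKB1 was 11.4% ± 2.23 against 12.0% ± 0.995. The difference of NFKB1 was within the spread of the libraries, while RELB gained 9.81 percentage points. A non-coding gene on the same strand, AC010733.2 (60925909 to 60931610), overlaps the exons of REL, and reads in such an overlap are counted for neither gene, so the level of REL per kb of exon is a lower estimate. The order of the subunits depended on the length used. Per kb of coding length REL held 37.9% to 46.2% in control and 33.1% and 34.0% in co-cultured cells. The exons of REL span 13170 bases and its coding part 1891. Both scales divide the same counts over all exons, so the coding scale can overstate a gene with long untranslated parts, such as REL. RELB held 8.62% to 11.2% in control on that scale and 16.6% and 17.7% in co-cultured cells. The smallest p that exact permutation of 3 and 2 libraries allows is 0.1, so these shares are given without a test.

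**Figure D3:**
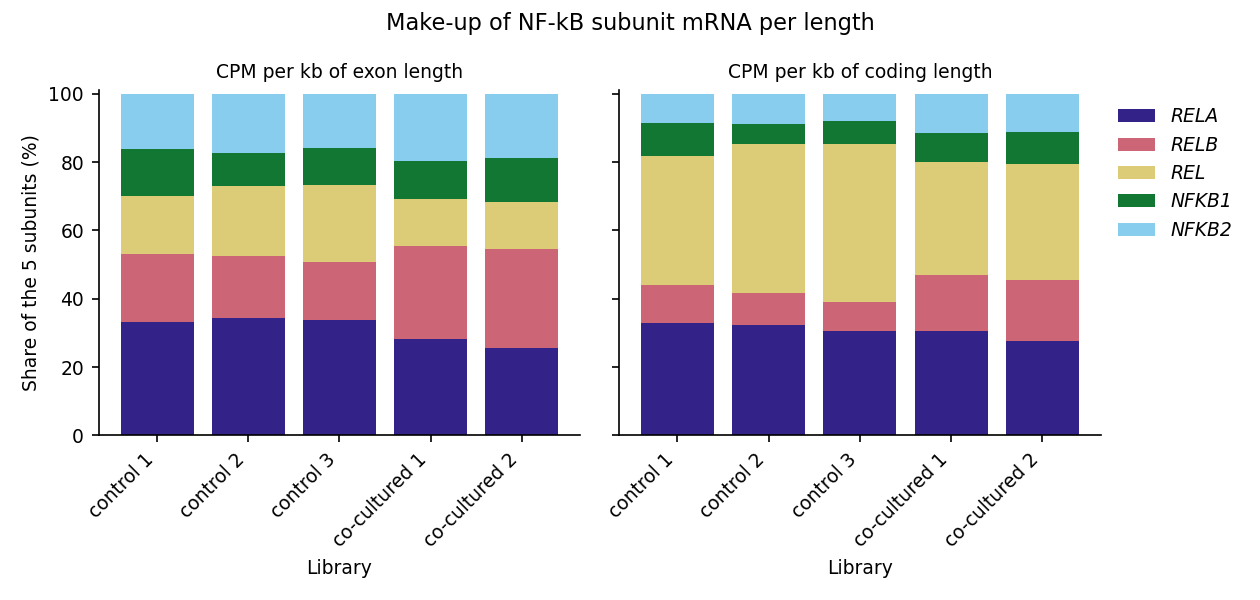
Share of each subunit in the summed level of the 5 subunits (%), for each of the 5 libraries, per kb of exon length (left) and of coding length (right). The RELB segment is wider in both co-cultured libraries on either scale, from 16.9% to 20.1% in control to 27.3% and 29.1% per kb of exon.

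Both cytoplasmic inhibitors rose, with estimates below that of RELB. NFKBIA (ENSG00000100906.10, chromosome 14, 35401511 to 35404749) encodes IkB alpha, the inhibitor that is broken down and made again within each round of signaling. It had 138, 122 and 117 CPM in control and 197 and 216 CPM in co-cultured cells. Both of the latter lay above all control libraries, and NFKBIA differed by 0.72 on the log2 scale (standard error 0.0924, adjusted p = 0.000574). NFKBIE (ENSG00000146232.16, chromosome 6, 44258166 to 44265788), which encodes IkB epsilon, was the least abundant of the 10 genes. Its 76, 81 and 83 counts in control stood against 122 and 98 after co-culture, or 4.04, 4.48 and 4.25 CPM against 6.67 and 6.47 CPM. The groups were again separate, and the log2 fold change of NFKBIE was 0.63 (standard error 0.17, adjusted p = 0.0199). With these counts the call was lost without control replicate 3 (0.63, adjusted p = 0.0584), co-cultured replicate 1 (0.61, adjusted p = 0.128) or co-cultured replicate 2 (0.65, adjusted p = 0.0975), and over 15 alternatives its adjusted p ran from 0.0109 to 0.128. NFKBIA stood at 29.7 to 37.1 times the level of NFKBIE per kb in control and at 32.1 and 36.3 times in co-cultured cells, so the ratio of these inhibitors overlapped between the groups. Relative to RELB, the level of NFKBIA per kb was 9.84, 9.76 and 10.6 in control and 6.88 and 7.33 in co-cultured cells.

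The nuclear IkB proteins, which bind NF-kB on DNA and can raise or lower transcription, both rose. BCL3 (ENSG00000069399.14, chromosome 19, 44747705 to 44760044) is a partner of the homodimers of the NFKB1 and NFKB2 products and was first known from a translocation in leukemia. Its 180, 171 and 165 counts in control stood against 654 and 512 after co-culture, or 9.57, 9.46 and 8.45 CPM against 35.7 and 33.8 CPM. The spread within each group was small beside the gap between them, and the log2 fold change of BCL3, 1.93 (standard error 0.11, adjusted p = 2.08e-05), was the largest estimate of the 10 genes. NFKBIZ (ENSG00000144802.11, chromosome 3, 101827991 to 101861022), whose product IkB zeta is needed for a later set of inflammatory genes, had 25.8, 22.0 and 22.1 CPM in control and 46.1 and 44.9 CPM in co-cultured cells. Its log2 fold change was 0.97 (standard error 0.10, adjusted p = 0.000217), a rise of 95.4%. The level of BCL3 per kb was 0.676 to 0.784 times that of NFKBIZ in control and 1.41 and 1.37 times in co-cultured cells, so the order of these genes was turned around.

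TNFAIP3 (ENSG00000118503.14, chromosome 6, 137867188 to 137883312) encodes A20, which edits ubiquitin chains on signaling proteins upstream of the IKK kinases. Its 769, 637 and 621 counts in control stood against 2430 and 1823 after co-culture, or 40.9, 35.2 and 31.8 CPM against 133 and 120 CPM. The groups were far apart beside the spread within each, and the log2 fold change was 1.82 (standard error 0.11, adjusted p = 2.19e-05). The intervals of TNFAIP3 and BCL3 overlapped, and their difference was not tested. Per kb, TNFAIP3 stood at 0.128 to 0.139 times the level of NFKBIA in control and at 0.317 and 0.262 times in co-cultured cells. Opposite-strand reads at TNFAIP3 were 20, 15 and 4 in control and 2 and 3 in co-cultured cells, and with them subtracted the log2 fold change was 1.83. An antisense gene, AL357060.1, overlaps its exons on the other strand and had 42, 31 and 30 counts of its own in control and 68 and 47 in co-cultured cells.

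Per kb of exon length, NFKBIA was the most abundant of the 10 transcripts in every library, at 52.9 ± 4.66 CPM per kb (SD, n = 3) in control against 87.1 ± 5.73 CPM per kb (SD, n = 2) after co-culture. In control it was followed by RELA (9.68 ± 0.432 CPM per kb) and TNFAIP3 (7.12 ± 0.909 CPM per kb), whose ranges were separate. REL, RELB and NFKB2 came next, between 4.34 and 6.14 CPM per kb, and their ranges overlapped, as did those of NFKB2 with NFKBIZ, of NFKBIZ with NFKB1 and of NFKB1 with BCL3. NFKBIE was lowest, at 1.57 to 1.74 CPM per kb. In co-cultured cells TNFAIP3 took the second place with 26.3 and 23.8 CPM per kb, above RELB, RELA and BCL3, which lay between 10.4 and 12.5 CPM per kb in overlapping ranges. BCL3 had lain at 2.61 to 2.95 CPM per kb in control, above NFKBIE and within reach of NFKB1. Per kb of coding length REL and RELA followed NFKBIA in control, so the ranks of REL and RELA rest on the length used.

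Most other inhibitors of the pathway were also higher. Of 16 such genes 14 were tested, and 10 of these (71.4%) were higher and 0 lower, where 18.4% and 15.0% of all genes were. The median of their log2 fold changes was 0.31. At an unadjusted p under 0.05 and by DESeq2 the number lower was also 0. ZC3H12A, which encodes an RNase that degrades inflammatory transcripts, had 11.6, 9.90 and 10.1 CPM in control and 24.1 and 24.4 CPM in co-cultured cells, which is 1.20 on the log2 scale (adjusted p = 0.000163). TNIP1, whose product works with A20, had 82.6, 82.2 and 89.9 CPM in control and 162 and 133 CPM in co-cultured cells, and RNF11, another partner of A20, rose by 0.85 on the log2 scale (adjusted p = 0.00101). Most of the other rises were small, such as those of CYLD (0.30) and ITCH (0.30) on the log2 scale. Without control replicate 2 or control replicate 3 the number higher was 7, where 2879 and 2941 of all genes were higher, against 3750 in the main fit. With a lone co-cultured library fewer of these inhibitors were higher, as were fewer of all genes.

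A list of 38 known NF-kB target genes was followed. In a fit limited to genes with at least 10 counts in every library, which tested only part of the 38, 16 were higher and 1 lower. Of the 17415 genes in that fit, 3466 were higher and 3005 lower. With the usual filter 26 were tested, of which 20 were higher and 1 lower, beside 18.4% and 15.0% of all genes tested. Their median log2 fold change was 1.38, where that of all genes tested was -0.03. The 26 include SELE, ICAM1, PTGS2 and CXCL10, which passed the filter through the co-cultured libraries where they are high. The values for the 26 are thus a description only. In no library did 11 of the 38 exceed 3 counts, and 7 of these were listed at 0 throughout. Of the 7, TNF, LTA and LTB also have entries on haplotype sequences, and reads that match both entries are counted on neither, so a listed 0 does not show that a transcript was absent. BIRC3, an inhibitor of cell death, had 35.2, 28.0 and 27.8 CPM in control and 94.4 and 77.8 CPM in co-cultured cells, which is 1.51 on the log2 scale (adjusted p = 7.39e-05). The chemokine CXCL1 rose by 2.56 and the transcription factor IRF1 by 1.20 on the log2 scale, with both co-cultured libraries above all control libraries for each. CFLAR, which blocks caspase activation at death receptors, was the gene that fell, with 103, 104 and 109 CPM in control and 83.6 and 82.2 CPM in co-cultured cells. Chosen after their values were seen, CCL20 was counted 442, 159 and 175 times in control against 1533 and 1372 times after co-culture, and ICAM1 6, 5 and 0 times against 33 and 35. SELE was counted 0, 2 and 2 times against 14 and 13. SELE and ICAM1 are also genes of activated endothelium, and the part of HBMEC RNA in these counts was not tested.

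Of 28 tested genes of the IKK complex, its related kinases and the steps upstream of it, 9 were higher and 5 lower. Of all genes tested, 18.4% were higher and 15.0% lower. The number lower was thus near the share over all genes. The median of their log2 fold changes was 0.20. The rises with the smallest p were those of RBCK1, a subunit of the linear ubiquitin ligase, of the interleukin-1 receptor kinase IRAK1 and of TAB2, with log2 fold changes of 0.82, 1.30 and 0.58. IKBKB, which encodes the main kinase for IkB alpha, had 38.7, 46.0 and 37.1 CPM in control and 27.2 and 26.4 CPM in co-cultured cells, and fell by 0.60 on the log2 scale (adjusted p = 0.00387). TRAF5 and TRADD fell by 0.30 and 0.46. The kinase MAP3K14 of the non-canonical branch, named after its values were seen, had a log2 fold change of -0.16 (95% interval from -0.51 to 0.19, adjusted p = 0.456). The number higher was 15 without control replicate 1, where 5295 of all genes were higher, against 3750 in the main fit. The number lower was 1 without control replicate 2 or control replicate 3, where 2150 and 2194 of all genes were lower, against 3059. With a lone co-cultured library fewer genes of this list were called, as were fewer of all genes.

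Of 19 receptors that signal to NF-kB 16 were tested, of which 8 were higher and 3 lower, beside 18.4% and 15.0% of all genes, so that the number lower was near the share over all genes. The median of their log2 fold changes was 0.44. In the fit limited to genes with no library under 10 counts, which tested fewer of the receptors, 5 were higher and 3 lower. TNFRSF1A, the main receptor for TNF, had 45.9, 39.4 and 35.2 CPM in control against 10.8 and 12.7 CPM in co-cultured cells and fell by 1.77 on the log2 scale (standard error 0.14, adjusted p = 6.72e-05). TNFRSF13C fell by 1.22 and TLR6 by 0.55 (adjusted p = 0.0498). TNFRSF12A, the receptor for TWEAK, had 3.03, 3.04 and 2.30 CPM in control against 9.18 and 7.93 CPM in co-cultured cells. TLR3, a sensor of double-stranded RNA, was counted 11, 6 and 7 times against 58 and 36 times and passed the filter through the co-cultured libraries where it is high. IL1RAP, a co-receptor for interleukin-1, rose by 0.72 on the log2 scale. The number higher was 4 without control replicate 3, where 2941 of all genes were higher, against 3750 in the main fit. With a lone co-cultured library fewer of the receptors were higher, as were fewer of all genes. The ligand TNF was listed at 0 in every library on its chromosome entry and had 0 to 5 counts on an entry of a haplotype sequence.

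**Figure D4:**
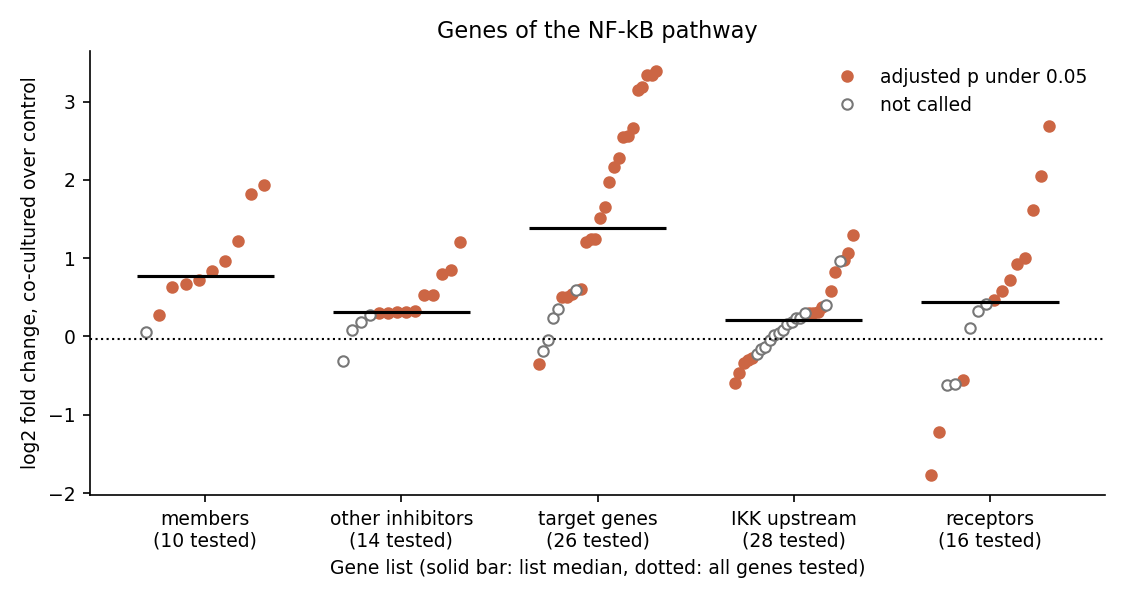
Change with co-culture (log2, relative to control) for every tested gene of the 10-gene group and of 4 pathway lists, each sorted by value, with filled circles for an adjusted p under 0.05. Solid bars are list medians (0.77, 0.31, 1.38, 0.20 and 0.44 from left to right) and the dotted line is the median of all genes tested (-0.03).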

How the data were processed

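RNA-Seq libraries of rRNA-depleted RNA were made with a directional kit. The authors deposited raw counts per gene in the layout of STAR gene counting, and their processing notes name CASAVA 1.8, STAR 2.6.1b, DESeq2 and GRCh38. The counts of the strand expected for the kit, with 92.3% to 93.1% of stranded counts, were used. The identifiers are those of GENCODE release 29. A deposited table of the comparison gave gene symbols only, and its group means, fold changes and p-values were not used.

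Genes were kept with filterByExpr, normalized by TMM and compared with edgeR 4.0.16 in R 4.3.3 (quasi-likelihood test, Benjamini-Hochberg adjustment over 20360 genes). Standard errors are the log2 fold change over the square root of F. The common biological coefficient of variation was 10.2%. The steps were tested on simulated data. Within a group, libraries differed beyond counting error (chi-square per degree of freedom 4.41 to 17.7). A count of 3 corresponds to 0.157 to 0.194 CPM, for counting error only.

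The 10 genes and the pathway lists were chosen with earlier results of these data known, and the lists come from general knowledge. Named genes are the 10 genes and, for each pathway list, up to 3 called genes with the smallest p in each direction, and all others in the text, marker genes included, were named after their values were seen. The additional fold threshold was set on the log2 scale, which is a reading of the methods of the study that they do not spell out. DESeq2 1.42.0 and 14 other alternatives were run. Exon and coding lengths are unions over GENCODE transcripts, the latter in place of a protein table. Plots used matplotlib 3.10.9.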

Additional observations from a re-analysis of the deposited data

How the results depend on the processing

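BCL3, TNFAIP3, RELB, NFKB2, NFKBIZ and NFKBIA kept their direction and an adjusted p under 0.05 under all 15 alternatives, and the number of the 10 genes called higher ran from 6 to 9. With each library left out in turn, which leaves a lone co-cultured library assumed to vary like the controls in 2 of the fits, NFKB1 ran from 0.57 to 0.86, NFKBIE from 0.59 to 0.67, RELA from 0.18 to 0.37 and REL from -0.03 to 0.12 on the log2 scale. RELA was no longer called by DESeq2 (0.29), with upper-quartile normalization (0.20), with opposite-strand counts subtracted (0.25) or over protein-coding genes only (0.21). REL was below 0 with upper-quartile normalization (-0.02), over protein-coding genes only (-0.01) and without control replicates 1 and 2 together (-0.05). The cause of these shifts was not tested. Upper-quartile normalization moved the median of all genes by -0.078, and protein-coding genes only by -0.069.

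The groups share replicate numbers 1 and 2, but the deviations of same-numbered libraries correlated at -0.114 and -0.067, so the numbers were not taken to pair the cultures. With the replicate block, 7 of the 10 genes were higher, RELA was at 0.24 (adjusted p = 0.219) and NFKBIE at 0.63 (adjusted p = 0.0891). Under the block the genes of and upstream of IKK had 1 lower, the other inhibitors 4 higher and the target genes 0 lower.

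Of the genes of and upstream of IKK, 3 were lower by DESeq2 and 1 with unstranded counts. With a library left out, 3 to 15 were higher and 0 to 6 lower. Of the receptors, 5 were higher when at least 10 counts were required in every library, and 4 to 8 with a library left out. The other inhibitors had 3 to 11 higher, the target genes 0 to 1 lower, and all genes 1749 to 5295 higher and 985 to 4602 lower. The difference in share among subunits was 1.92 points for NFKB2 with unstranded counts, and -9.02 for REL, -2.77 for RELA and 7.39 for RELB with coding length. With a library left out it ran from -0.36 to 1.83 for NFKB1 and from -8.28 to -5.55 for RELA.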
